A study of Mus musculus with 6 samples.

Results

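The genes described here are 10 genes of the Toll-like receptor pathway, of the 22086 genes to which the deposited transcripts were matched. They are the receptors Tlr2, Tlr3, Tlr4 and Tlr7, the co-receptors Cd14 and Ly96, the adaptors Myd88 and Ticam1, the kinase Irak1 and the ubiquitin ligase Traf6. The genes were listed by name with earlier results of these data known. The transcript that stands for each gene was selected on its total count over the 6 libraries, the highest being taken whichever the genotype, so that the levels below are a description. Values of a genotype are given in the order of replicates 1 to 3. Polysomal mRNAs of astrocytes were recovered from whole hippocampi of 6 weeks-old mice by translating ribosome affinity purification (TRAP), in 3 libraries labelled Littermates (Cx43FL) and 3 labelled KO (Cx43KO). All of these mice carried tg:Aldh1L1-RPL10aGFP, a BAC transgene in which the Aldh1l1 promoter drives the ribosomal protein L10a fused to eGFP, and floxed alleles of the connexin 43 gene (Cx43 fl/fl). Cx43KO mice carried in addition Gfap Cre, the Cre recombinase under a human Gfap promoter, and Cx43FL mice had no Cre. The purification therefore reports on cells in which the Aldh1l1 promoter is active, and the deletion on cells in which the Gfap promoter is or has been active. Nothing in the labels says whether the libraries of a genotype came from separate animals, so that p-values measure the spread between these libraries only.

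Toll-like receptors are membrane proteins that recognise conserved molecules of microbes and of damaged cells. Tlr2 and Tlr4 sit at the cell surface, where they bind bacterial lipopeptides and lipopolysaccharide, and Tlr3 and Tlr7 sit in endosomes, where they bind double-stranded and single-stranded RNA. Myd88 carries the signal of most of these receptors through Irak kinases and Traf6 to the transcription factor NFκB, and Ticam1 (TRIF) carries that of Tlr3, and of endocytosed Tlr4, to interferon regulatory factors. In the brain these genes are best known from microglia, and astrocytes are known to express Tlr3.

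Counts on genes ranged from 14787303 to 15391214 in Cx43FL and from 16056347 to 34733473 in Cx43KO libraries, and 3 counts corresponded to 0.0926 to 0.199 CPM, a floor that covers counting error only. CPM are counts scaled to a common library size (counts per M on the genes tested, after TMM scaling). Gja1, the targeted gene, had 92.0, 91.7 and 82.3 CPM in the Cx43FL libraries and 87.2, 98.4 and 95.1 CPM in those labelled Cx43KO (log2 fold change 0.078, standard error 0.28, edgeR adjusted p = 0.949). A lower level in the libraries labelled Cx43KO was therefore not seen, and the counts do not tell whether they cover the deleted stretch of Gja1. The genotypes below are those of the labels, and every direction rests on them. Cx43KO replicate 1 stood apart, at 123.4 on the first principal component (41.04% of the variance) where the other 5 libraries lay between -50.67 and -0.4226. Its summed astrocyte markers were the lowest, 11300 CPM where the others had 19200 to 31300. Its summed oligodendrocyte markers were the highest, 2600 CPM where the others had 588 to 978. Summed neuronal markers were higher in every library labelled Cx43KO, with 7300, 2810 and 4200 CPM against 2050, 2540 and 2760 CPM in Cx43FL. All 10 neuronal markers had a log2 fold change above 0 (median 0.91), as had 7365 of the 13545 genes tested (median 0.071). Rbfox3, Gad2 and Camk2a did not overlap, where 8.08% of all genes were higher in every library labelled Cx43KO. Of the 10 markers edgeR called 0. DESeq2 called no marker of this list with its prior and only Gad2 without it (adjusted p = 0.0495). It called 0.671% of 16836 genes higher with the prior and 0.873% without it. Without Cx43KO replicate 1, Tubb3 turned to -0.33 and Slc17a7 to -0.007, and the others stayed above 0, Gad2 the highest at 0.93. The number of cells of a type, the RNA per cell and the untagged RNA carried through the purification cannot be told apart in these counts.

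Per length of transcript, Tlr3 was the receptor with the highest level in every library. Tlr4, Cd14 and Myd88 were lower in every library labelled Cx43KO than in every library labelled Cx43FL, with mean CPM 6.01, 3.75 and 2.58 times as high in Cx43FL. Tlr2 and Tlr7 were counted unevenly, each with a Cx43FL library at 0 and its highest count in Cx43KO replicate 3, and overlapped between genotypes. Tlr3, Irak1, Ly96, Ticam1 and Traf6 overlapped as well. No gene of the 10 passed the test at an adjusted p of 0.05.

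**Figure D1:**
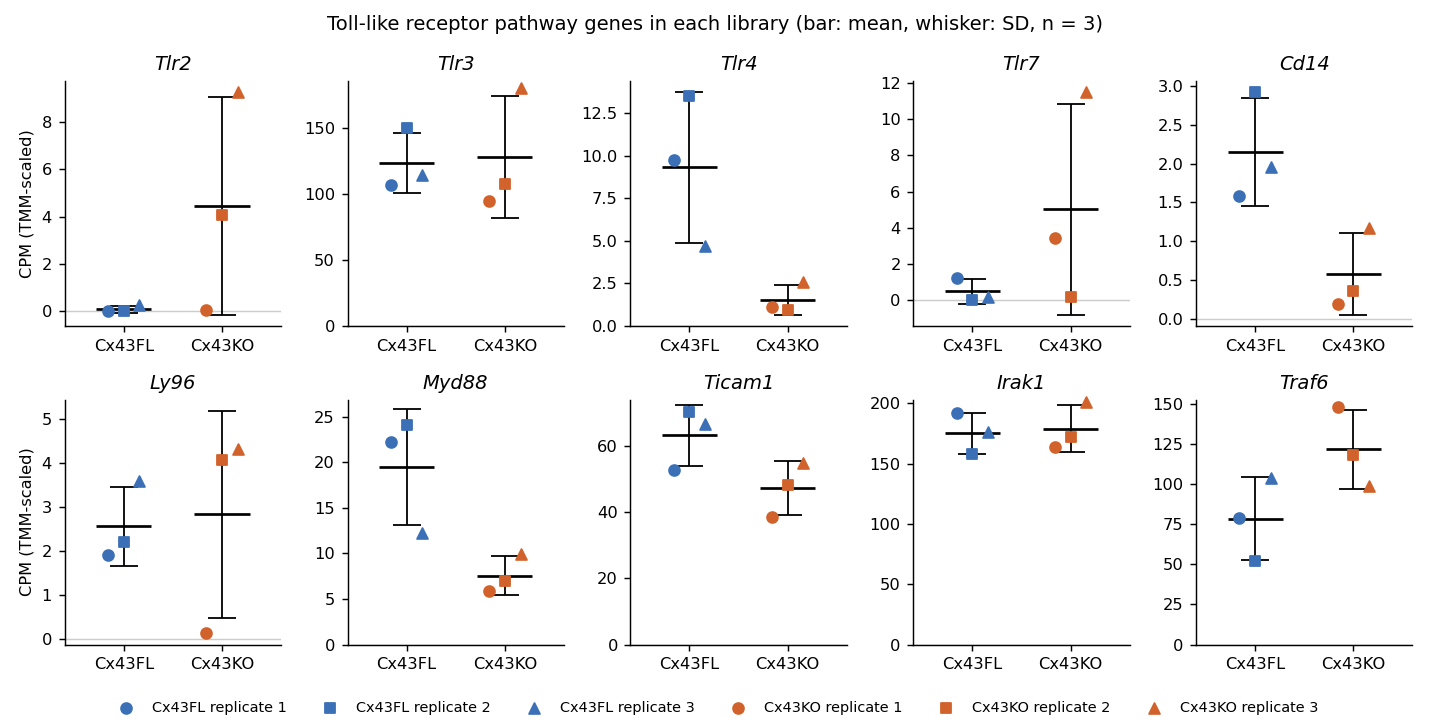
CPM of each of the 10 genes (y axes, linear) in the 3 Cx43FL and the 3 Cx43KO libraries, with 1 symbol per library, the mean as a bar and the SD as a whisker. For Tlr4, Cd14 and Myd88 all Cx43KO symbols lie under all Cx43FL symbols, and for the other 7 genes the groups overlap.

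Of the 10 genes, 9 passed edgeR's filter on low counts and were tested, and Tlr2 did not. A gene was called when its adjusted p lay below 0.05 and its mean normalized count, in the higher genotype, exceeded 50. By this rule edgeR's quasi-likelihood test called 0 of the 9, against 0.00738% of the 13545 genes tested called higher and 0.0% called lower in Cx43KO. At an unadjusted p below 0.05, edgeR gave 0 of the 9 higher and 2 lower, Tlr4 and Myd88, against 5.66% and 2.67% of all genes. DESeq2 called 0 of the 10 genes with its prior and 0 without it, where 0.671% and 0.873% of 16836 genes were called higher and 0.101% and 0.16% lower. All libraries labelled Cx43KO lay below all libraries labelled Cx43FL for 3 of the 9 and above them for 0, where 7.45% and 8.08% of all genes tested did so. The median log2 fold change of the 9 genes was 0.032, beside 0.071 for all genes tested.

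Levels were compared between genes per kb of the representing transcript. In Cx43FL, Irak1 was the highest with 45.8 ± 4.40 CPM per kb (SD, n = 3 libraries, as for the levels that follow). Tlr3 followed with 28.2 ± 5.25, Ticam1 with 21.1 ± 3.06, Traf6 with 12.7 ± 4.19 and Myd88 with 9.96 ± 3.26 CPM per kb. The remaining genes were lower, Ly96 at 4.05 ± 1.42, Tlr4 at 2.28 ± 1.08, Cd14 at 1.31 ± 0.421, Tlr7 at 0.128 ± 0.178 and Tlr2 at 0.0288 ± 0.0499 CPM per kb. Neighbours whose Cx43FL libraries overlapped were Traf6 and Myd88, Ly96 and Tlr4, Tlr4 and Cd14, and Tlr7 and Tlr2. In Cx43KO the first 2 places were again those of Irak1 (46.8 ± 5.13) and Tlr3 (29.0 ± 10.5 CPM per kb). The last 2 were those of Tlr4 (0.38 ± 0.216) and Cd14 (0.35 ± 0.321 CPM per kb), below Tlr2 (1.48 ± 1.53) and Tlr7 (1.33 ± 1.55 CPM per kb).

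**Figure D2:**
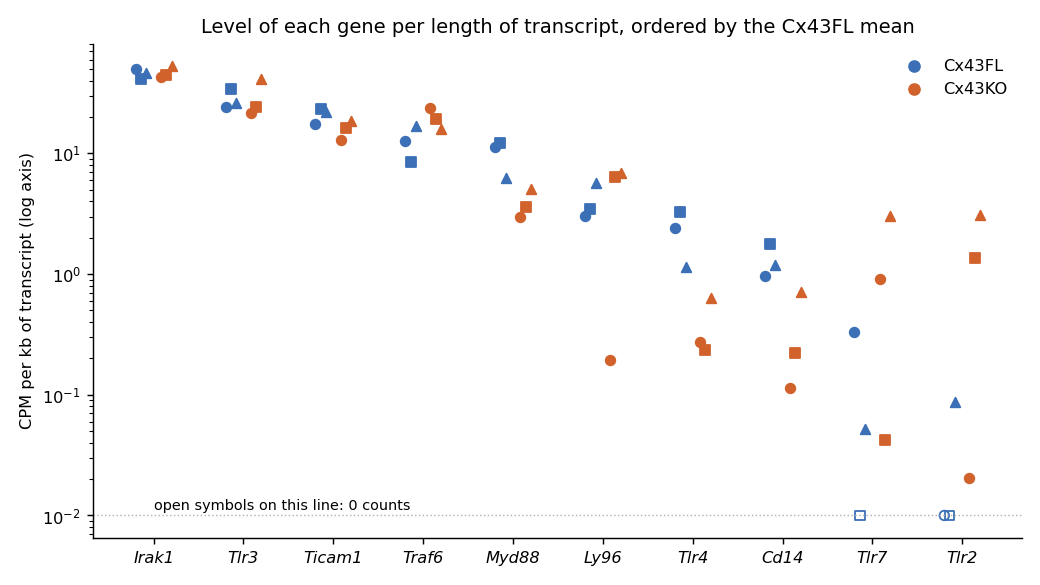
CPM per kb of transcript (log axis) for each of the 10 genes, ordered from left to right by the Cx43FL mean, with 1 symbol per library and open symbols on the dotted line for 0 counts. Irak1 and Tlr3 have the highest means in both groups, and Tlr2 and Tlr7 spread the most, from 0 counts to 3.07 and 3.05 CPM per kb.

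Tlr3, the receptor of double-stranded RNA, lies on the minus strand of chromosome 8 of GRCm38, where its 7-exon transcript runs from 45395665 to 45410619. Its counts were 1623, 2267 and 1765 in the Cx43FL libraries and 1533, 2680 and 5854 in those labelled Cx43KO. These correspond to 107, 150 and 115 CPM and to 95.2, 108 and 181 CPM. Cx43KO replicate 3 was the highest and Cx43KO replicate 1 the lowest of the 6, so that the genotypes overlapped. Its log2 fold change was 0.044 (standard error 0.33, edgeR adjusted p = 0.98), and the exact 2-sided permutation test gave p = 1.0. Of the summed CPM per kb of the 4 receptors, Tlr3 made up 89.9, 91.2 and 95.3% in the Cx43FL libraries and 94.7, 93.8 and 85.9% in those labelled Cx43KO. An antisense gene, Gm45542, covers 117 bases of its exons and is not in the counts.

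Tlr4, the receptor of lipopolysaccharide, lies on the plus strand of chromosome 4 from 66827584 to 66842800, with 3 exons in the representing transcript. It had 148, 203 and 72 counts in the Cx43FL libraries and 18, 24 and 83 counts in those labelled Cx43KO, or 9.75, 13.5 and 4.69 CPM and 1.12, 0.965 and 2.56 CPM. The highest library labelled Cx43KO, replicate 3, lay below the lowest labelled Cx43FL, also a replicate 3. Normalized to a common depth, Tlr4 had 184.5 ± 87.36 counts in Cx43FL against 30.7 ± 17.49 in Cx43KO (SD, n = 3 libraries per genotype). This is a log2 fold change of -2.58 (standard error 0.902), with an unadjusted p of 0.0156 and an adjusted p of 0.54 from edgeR's quasi-likelihood test. DESeq2's adjusted p was 0.0736 with the prior and 0.0569 without it. The exact 2-sided permutation test gave p = 0.1, the smallest that 3 against 3 libraries allow. Per 10000 CPM of summed astrocyte markers, Tlr4 had 4.87, 7.01 and 2.06 CPM in the Cx43FL libraries and 0.992, 0.459 and 0.818 CPM in those labelled Cx43KO, and the groups did not overlap on this scale either. Without Cx43KO replicate 1 the log2 fold change was -2.40. The study placed Tlr4 in a list of lower genes drawn from these libraries, so that its direction here is not independent evidence.

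Tlr4 has 3 further transcripts in the counts, which share 557, 504 and 476 bases with the representing transcript. The most counted of them, a processed transcript of 646 bases, had 18, 106 and 16 counts in the Cx43FL libraries and 0, 1 and 61 counts in those labelled Cx43KO. These are 12.2, 52.2 and 22.2% of the counts on the representing transcript in Cx43FL and 0.0, 4.17 and 73.5% in Cx43KO. Cx43FL replicate 2 and Cx43KO replicate 3 thus had the larger shares. When the counts of the 4 transcripts were added up, Tlr4 had 5.67, 12.4 and 2.97 CPM in the Cx43FL libraries and 0.497, 0.568 and 2.98 CPM in those labelled Cx43KO, and the genotypes overlapped. A read is counted on every transcript it overlaps, so that such sums count shared bases more than once. The 3 genes whose log2(CPM + 0.5) followed that of Tlr4 the closest over the 6 libraries were Svep1 (Pearson r = 0.9927), Kyat3 (r = 0.9923) and Rad9a (r = 0.9918). They are the first of 63 genes above 0.95 among 12318, and the 6 points share library, depth and genotype. Svep1, an extracellular matrix protein, had 6.65, 7.56 and 3.19 CPM in the Cx43FL libraries and 1.12, 1.29 and 2.07 CPM in those labelled Cx43KO.

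Tlr2, the receptor of bacterial lipopeptides, lies on the minus strand of chromosome 3 from 83836272 to 83841767, with 3 exons. It had 0, 0 and 4 counts in the Cx43FL libraries and 1, 101 and 300 counts in those labelled Cx43KO. In CPM this is 0.0, 0.0 and 0.261 against 0.0621, 4.06 and 9.26. Cx43KO replicates 2 and 3 were far above all Cx43FL libraries, and Cx43KO replicate 1 lay among them, so that the genotypes overlapped (exact 2-sided permutation test, p = 0.2). Without the filter on low counts the fitted log2 fold change was 5.59 (standard error 1.98, edgeR adjusted p = 0.458). DESeq2 gave 1.14 with its prior (adjusted p = 0.312) and 5.68 without it (adjusted p = 0.0791). In the fits that left out 1 library, Tlr2 passed the filter in 4 of 6, with 5.02 to 6.16 in 3 of them and 9.54 without Cx43FL replicate 3, the only Cx43FL library with counts. A fold fitted against 4 counts depends on the prior count and gives no bound.

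The stretch before the first exon of Tlr2 is shown because Cx43KO replicates 2 and 3 held nearly all of the counts of this receptor. It comes from the RefSeq promoter table (GRCm38.p6, minus strand, chr3:83841768-83841858), which held 6 of the 10 genes, and is the part of the 250 bases before the RefSeq start that the annotation does not put in an exon. The motifs were searched on both strands, namely the core of the interferon-stimulated response element (GAAA, then NN, then GAAA again), the NFκB consensus, TTCNNNGAA (a STAT site) and GGGCGG (an Sp1 box). Capitals mark matches. Tlr2 held the NFκB consensus at 2 overlapping positions and none of the others in these 91 bases, the part of the window farthest from the RefSeq start. In the same 91 bases of their window, 1.3% of the 32851 promoters of the table held this consensus. The distance of these bases to the first exon can differ in the other promoters. A match is a description of letters and not evidence of binding.
Tlr2: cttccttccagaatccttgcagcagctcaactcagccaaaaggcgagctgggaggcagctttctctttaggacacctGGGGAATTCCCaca

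Tlr7, the endosomal receptor of single-stranded RNA, lies on the minus strand of chromosome X from 167304931 to 167330558, with 3 exons. Tlr7 had 19, 0 and 3 counts in Cx43FL and 55, 4 and 373 in those labelled Cx43KO, or 1.25, 0.0 and 0.195 CPM against 3.41, 0.161 and 11.5 CPM. Cx43KO replicate 2 lay below Cx43FL replicate 1, and the other 2 libraries labelled Cx43KO lay above all Cx43FL libraries. The log2 fold change of 3.37 (standard error 1.71) had an edgeR adjusted p of 0.609, and the exact 2-sided permutation test gave p = 0.3. With each library left out in turn it ranged from 1.87, without Cx43KO replicate 3, to 5.58. Of the other Toll-like receptors, Tlr5 and Tlr13 could be tested. Tlr13, a receptor of bacterial ribosomal RNA, had 0.198, 0.0 and 1.89 CPM in the Cx43FL libraries and 4.22, 7.6 and 0.278 CPM in those labelled Cx43KO (log2 fold change 2.52, edgeR adjusted p = 0.658). Tlr5, the flagellin receptor, had 0.0, 5.11 and 0.716 CPM in the Cx43FL libraries and 4.47, 0.161 and 0.0 CPM in those labelled Cx43KO (log2 fold change -0.34, edgeR adjusted p = 0.972). Its direction turned when any of 3 libraries was left out, to 2.06 without Cx43FL replicate 2, 0.19 without Cx43KO replicate 2 and 0.25 without Cx43KO replicate 3, and it was -4.55 without Cx43KO replicate 1. Tlr1 and Tlr6, the partners of Tlr2, reached at most 5 and 1 counts in a library, and Tlr11 had 0 counts in all 6 libraries. Tlr8 and Tlr9 were counted only in Cx43KO replicates 2 and 3, with at most 15 and 25 counts. Tlr12 was counted only in Cx43KO replicate 3, with 11 counts. These 2 libraries had the most counts on genes. Counts this low do not show a receptor to be absent.

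Of the 17 tested markers of microglia, the cells best known for Tlr2 and Tlr7, edgeR called 0 (lowest adjusted p 0.49), and 7 were higher at an unadjusted p below 0.05, where 5.66% of all genes were. DESeq2 with its prior called Itgam (adjusted p = 0.000553), Laptm5 (0.031), C1qb (0.0365), C1qc and Ctss (0.0421 each) higher, and no other marker of the list. It called 0.671% of 16836 genes higher. The summed level of the 20 markers was higher in every library labelled Cx43KO. It was 132, 145 and 106 CPM in the Cx43FL libraries and 232, 215 and 333 CPM in those labelled Cx43KO, and no marker of the list was at 0 in all libraries. By non-overlap, 7 of the 17 were higher in every library labelled Cx43KO (among them Csf1r, Itgam, C1qb, C1qc, Ctss and Laptm5), beside 8.08% of all genes, and the other 10 overlapped. The log2 fold change was above 0 for 14 of the 17 (median 1.55) and below 0 for P2ry12 (-0.20), Tmem119 (-0.23) and Sall1 (-0.36). Of all 13545 genes tested, 7365 were above 0 (median 0.071). Sall1 was the marker with the highest level, 58.9 CPM on average, and the sum without it was 66.8, 76.3 and 41.1 CPM against 197, 139 and 288 CPM. Trem2, a receptor of microglia, had 1, 0 and 3 counts in the Cx43FL libraries and 0, 76 and 81 counts in those labelled Cx43KO, and C1qa, a complement subunit made by microglia, 0, 0 and 4 against 1, 88 and 83 counts. Cx3cr1, the fractalkine receptor of microglia, overlapped, with 2.9, 3.85 and 6.32 CPM in the Cx43FL libraries and 3.1, 4.46 and 6.73 CPM in those labelled Cx43KO. Markers of border macrophages and monocytes summed to 2.08 to 8.49 CPM in the Cx43FL libraries and 15.8 to 22.6 CPM in those labelled Cx43KO, where Mrc1 was the highest, and edgeR called 0 of the 3 tested. Of the 6 neutrophil markers S100a8, Ly6g, Ngp, Camp and Retnlg were at 0 in all libraries, as were Cd3e, Cd3g, Cd8a and Nkg7 of the 9 lymphocyte markers. P2ry12, Tmem119, Trem2, C1qa and Cx3cr1 were singled out after their values were seen, and the part of these cells in the values of Tlr2 and Tlr7 was not tested.

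**Figure D3:**
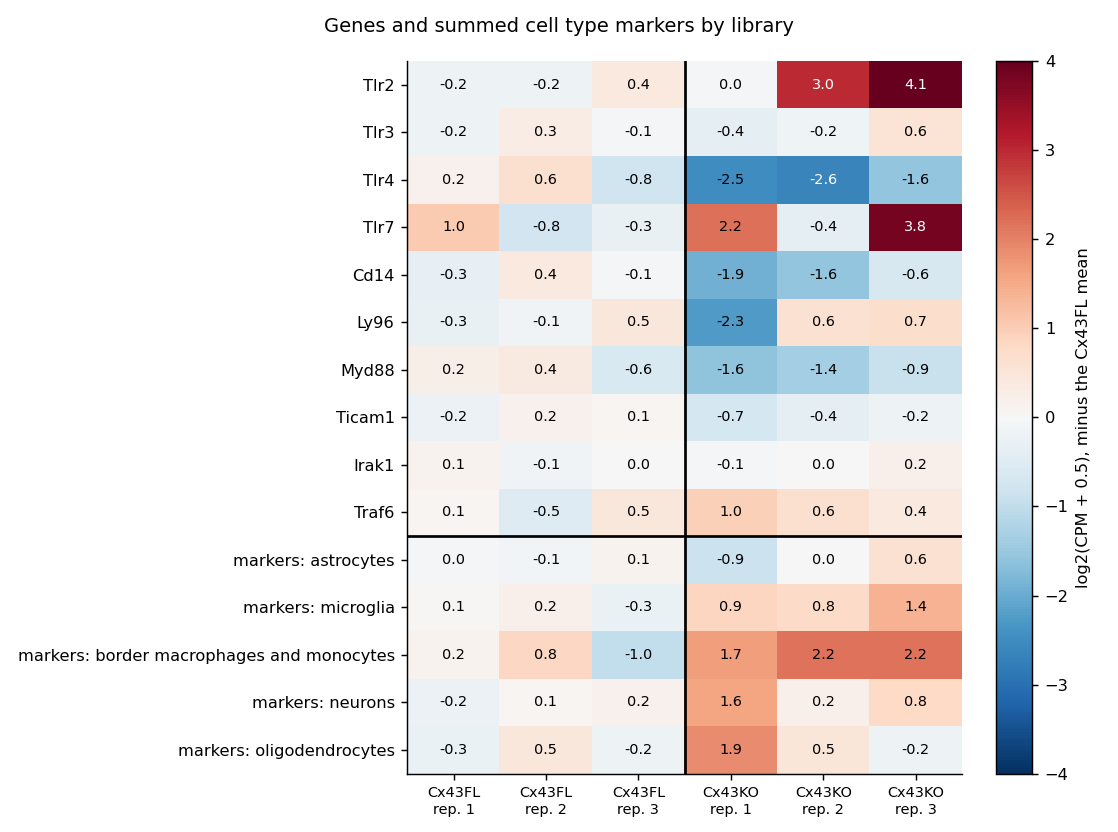
log2(CPM + 0.5) of each of the 10 genes and of the summed markers of 5 cell types in each library, minus the mean of the 3 Cx43FL libraries, in colour and as printed numbers. Tlr4, Cd14, Myd88 and Ticam1 are below 0 in all 3 Cx43KO libraries and Traf6 and the markers of microglia, of border macrophages and monocytes and of neurons above 0, while Tlr2 and Ly96 differ between Cx43KO replicate 1 and the other 2.

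Cd14, the co-receptor that hands lipopolysaccharide to Tlr4, lies on the minus strand of chromosome 18 from 36725067 to 36726798, with 2 exons. Cd14 had 24, 44 and 30 counts in Cx43FL and 3, 9 and 38 in those labelled Cx43KO, or 1.58, 2.92 and 1.95 CPM against 0.186, 0.362 and 1.17 CPM. The raw counts overlapped and the CPM did not, Cx43KO replicate 3 being the library with the most counts. Cx43KO replicate 1 was at the floor of 3 counts. Its log2 fold change was -1.88 (standard error 1.23, edgeR adjusted p = 0.658), and the exact 2-sided permutation test gave p = 0.1, its smallest value. Per 10000 CPM of astrocyte markers, Cd14 had 0.789, 1.52 and 0.857 CPM in the Cx43FL libraries and 0.165, 0.172 and 0.375 CPM in those labelled Cx43KO. Cd14 is also made by microglia and macrophages, whose summed markers were higher in the libraries labelled Cx43KO. The part of these cells in the values of Cd14 was not tested.

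Ly96, which encodes the subunit of the Tlr4 complex that binds lipopolysaccharide, lies on the plus strand of chromosome 1 from 16688433 to 16709611, with 5 exons. It had 1.91, 2.19 and 3.58 CPM in Cx43FL and 0.124, 4.06 and 4.32 CPM in those labelled Cx43KO. With 2 counts, Cx43KO replicate 1 was under the floor of 3 counts, and the other 2 libraries labelled Cx43KO were the highest of the 6. The log2 fold change of 0.15 (standard error 1.22, edgeR adjusted p = 0.982) turned to -0.28 without Cx43KO replicate 3 and was 0.71 without Cx43KO replicate 1. The ratio of Ly96 to Tlr4, in CPM per kb, was 1.26, 1.05 and 4.93 in the Cx43FL libraries and 0.717, 27.1 and 10.9 in those labelled Cx43KO, and overlapped (exact 2-sided permutation test on its logarithm, p = 0.4). Of 7 tested accessory and trafficking proteins out of 8, Lbp, the lipopolysaccharide-binding protein of serum, was the only gene to be higher in every library labelled Cx43KO. It had 3.62, 0.929 and 12.2 CPM in the Cx43FL libraries and 29.1, 36.9 and 40.1 CPM in those labelled Cx43KO (log2 fold change 2.66, standard error 0.788, edgeR adjusted p = 0.491). DESeq2's adjusted p of Lbp was 0.0408 with its prior. The study listed Lbp among higher genes on these same libraries. The lowest log2 fold change of this list was that of Cd180, a receptor related to Tlr4, at -0.85 (edgeR adjusted p = 0.883), and the median of the 7 was 0.83. Cd180 rested on Cx43FL replicate 3, with 0.132, 0.531 and 13.2 CPM in the Cx43FL libraries and 0.31, 2.01 and 5.28 CPM in those labelled Cx43KO, and turned to 2.92 without it.

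Myd88, the adaptor of all of these receptors but Tlr3, lies on the minus strand of chromosome 9 from 119335934 to 119340041, with 6 exons. It had 337, 364 and 188 counts in the Cx43FL libraries and 94, 174 and 321 counts in those labelled Cx43KO, or 22.2, 24.1 and 12.2 CPM against 5.84, 6.99 and 9.91 CPM. The highest library labelled Cx43KO, replicate 3, and the lowest labelled Cx43FL, replicate 3, were the closest. Myd88 had a log2 fold change of -1.36 (standard error 0.571), with an unadjusted p of 0.0362 and an adjusted p of 0.575 from edgeR, and DESeq2's adjusted p with the prior was 0.215. The exact 2-sided permutation test gave p = 0.1, its smallest value. Per 10000 CPM of astrocyte markers the values were 11.1, 12.6 and 5.37 CPM in the Cx43FL libraries and 5.18, 3.33 and 3.16 CPM in those labelled Cx43KO. Acaa1a covers 223 bases of the exons of Myd88 on the opposite strand and, since the kit does not keep the strand, reads of both genes cannot be told apart there.

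Ticam1, the adaptor of Tlr3, lies on the minus strand of chromosome 17 from 56269319 to 56276786, with 2 exons. It had 52.9, 70.3 and 66.6 CPM in Cx43FL and 38.7, 48.2 and 55.0 CPM in those labelled Cx43KO. Only Cx43KO replicate 3 was above a Cx43FL library, replicate 1. Ticam1 had a log2 fold change of -0.42 (standard error 0.331, edgeR adjusted p = 0.712), and the exact 2-sided permutation test gave p = 0.2. The ratio of Myd88 to Ticam1, in CPM per kb, was 0.641, 0.524 and 0.281 in the Cx43FL libraries and 0.23, 0.222 and 0.275 in those labelled Cx43KO (exact 2-sided permutation test on its logarithm, p = 0.1), with no overlap and Cx43FL replicate 3 the closest to those labelled Cx43KO. Of the other adaptors, Tirap (log2 fold change 0.07) and Sarm1 (0.50) could be tested and overlapped between genotypes, with edgeR adjusted p of 0.98 and 0.831. Tirap turned to -0.18 without Cx43FL replicate 1 and -0.48 without Cx43KO replicate 2, and Sarm1 was 0.09 without Cx43FL replicate 2 or Cx43KO replicate 2 and 1.11 without Cx43FL replicate 3.

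The stretches before the first exons of the 2 adaptors are shown because Myd88 is the gene with non-overlapping libraries for which the RefSeq table has a promoter, and Ticam1 the adaptor whose libraries overlapped. They are 227 and 231 bases of the minus strand of GRCm38.p6, chr9:119340042-119340268 for Myd88 and chr17:56276787-56277017 for Ticam1, cut and marked as for Tlr2. Myd88 held the response element core and TTCNNNGAA, overlapping by 3 bases, and GGGCGG, each at 1 position. In the same bases of all 32851 promoters, 2.7% held this core, 6.42% TTCNNNGAA and 29.4% GGGCGG. Ticam1 held GGGCGG at 2 positions, as 30.0% of promoters did at least at 1 position in the same bases, and none of the other motifs.
Myd88: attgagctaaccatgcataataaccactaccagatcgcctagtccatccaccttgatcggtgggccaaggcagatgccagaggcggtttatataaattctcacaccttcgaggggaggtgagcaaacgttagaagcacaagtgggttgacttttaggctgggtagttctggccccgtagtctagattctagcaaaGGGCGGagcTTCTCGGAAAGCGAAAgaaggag
Ticam1: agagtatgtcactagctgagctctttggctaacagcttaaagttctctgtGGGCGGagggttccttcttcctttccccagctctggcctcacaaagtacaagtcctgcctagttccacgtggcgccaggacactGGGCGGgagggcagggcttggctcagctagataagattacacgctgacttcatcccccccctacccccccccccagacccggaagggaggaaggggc

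Irak1, the kinase recruited by Myd88, lies on the minus strand of chromosome X from 74013918 to 74023915, with 14 exons in the representing transcript. It had 192, 158 and 176 CPM in Cx43FL and 164, 172 and 201 CPM in those labelled Cx43KO, a narrow range in which both genotypes overlapped. The microRNA genes Mir5132 and Mir718 overlap its exons on the same strand and are not in the counts. The log2 fold change was 0.03 (standard error 0.264, edgeR adjusted p = 0.982), and the exact 2-sided permutation test gave p = 0.8. Traf6, the ubiquitin ligase downstream of Irak1, lies on the plus strand of chromosome 2 from 101678440 to 101701669, with 8 exons. Its values were 79.1, 52.2 and 104 CPM in the Cx43FL libraries and 148, 118 and 98.9 CPM in those labelled Cx43KO. It was the only gene of the 10 for which Cx43KO replicate 1 was the highest library, and Cx43KO replicate 3 lay below Cx43FL replicate 3. Traf6 had a log2 fold change of 0.63 (standard error 0.339, edgeR adjusted p = 0.609), and the exact 2-sided permutation test gave p = 0.2.

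**Figure D4:**
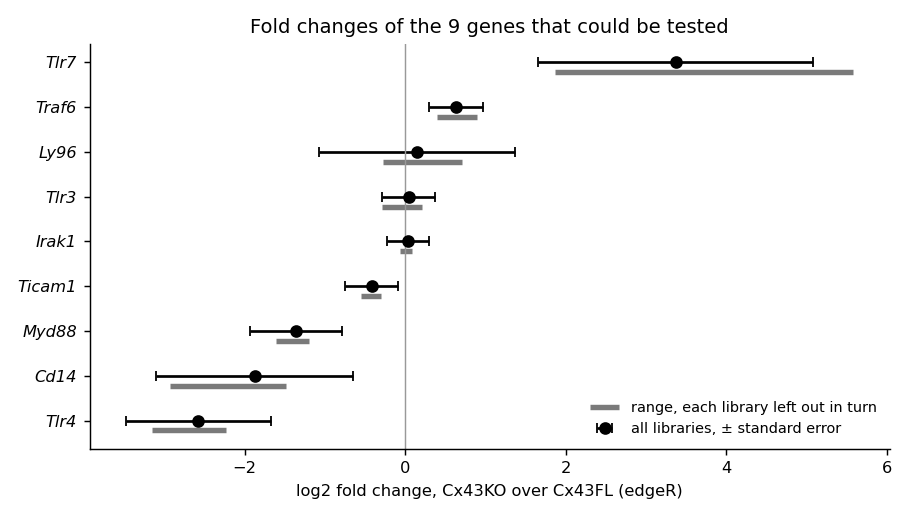
log2 fold change of Cx43KO over Cx43FL from edgeR (x axis) for the 9 genes tested, with the standard error as a whisker and, in grey, the range of the value when each library is left out in turn. Tlr4, Cd14, Myd88 and Ticam1 stay below 0 and Tlr7 and Traf6 above 0 in these ranges, and Tlr3, Ly96 and Irak1 cross 0.

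The pathway around these genes was described with 8 lists holding 84 further genes, of which 61 were tested and 0 called by edgeR. DESeq2 with its prior called Lbp (adjusted p = 0.0408), Ccl5 (0.000101) and Cxcl10 (0.0492) higher, and no other gene of the lists. Without the prior it called these (0.0311, 7.1e-05 and 0.0379) and Ifit1 (0.0476). Of 16836 genes, 0.671% were called higher with the prior and 0.873% without it. At an unadjusted p below 0.05, edgeR gave 6 of the 61 higher and 3 lower, against 5.66% and 2.67% of all genes. By non-overlap, 4 were higher and 7 lower in every library labelled Cx43KO, beside the 8.08% and 7.45% of all genes, and the median log2 fold change was 0.20. For 22 of the 61 the sign of the fold changed in at least 1 of the fits without a library. The genes lower in every library labelled Cx43KO belonged to the lists of kinases, inhibitors and transcription factors, and those higher to the lists of accessory proteins and target genes. None of these lists held more than 3 such genes, and a difference between lists was not tested. Irak2, Chuk, Tank, Irf3 and Birc3 are named below because of these counts, after their values were seen.

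Among 14 tested kinases and ubiquitin ligases, Irak2, Ikbkb and Chuk were lower in every library labelled Cx43KO, and the median was -0.05. Ikbkb, the kinase that marks the NFκB inhibitor for degradation, had the lowest log2 fold change, -1.58 (standard error 0.516, edgeR adjusted p = 0.54), with 38.8, 37.6 and 25.3 CPM in the Cx43FL libraries and 5.71, 14.7 and 13.5 CPM in those labelled Cx43KO. Tab3, a partner of the kinase downstream of Traf6, had the highest, 0.67 (edgeR adjusted p = 0.673). Among 9 tested inhibitors, Nfkbia and Tank were lower in every library labelled Cx43KO. Nfkbia, which holds NFκB in the cytoplasm, had 32.7, 34.0 and 27.5 CPM in the Cx43FL libraries and 6.89, 13.4 and 18.1 CPM in those labelled Cx43KO (log2 fold change -1.29, standard error 0.5, edgeR adjusted p = 0.556). Tnfaip3, a ubiquitin-editing inhibitor of NFκB signalling, had the highest log2 fold change of the inhibitors, 0.93 (edgeR adjusted p = 0.716).

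Among 13 tested transcription factors and MAP kinases, Irf3 and Fos were lower in every library labelled Cx43KO. Fos, an immediate early gene, had the lowest log2 fold change, -1.78 (standard error 0.64, edgeR adjusted p = 0.54), and Irf3, the factor downstream of Ticam1, had 28.5, 22.7 and 22.5 CPM in the Cx43FL libraries and 12.6, 14.3 and 8.71 CPM in those labelled Cx43KO (edgeR adjusted p = 0.6). Nfkb1, a subunit of NFκB, had the highest log2 fold change, 0.45 (edgeR adjusted p = 0.816), which was -0.004 without Cx43KO replicate 1.

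Target genes of the pathway differed in coverage. Of 15 NFκB target genes, 7 were tested, and Il1b, Il6, Il12b, Ccl4 and Cxcl2 had 0 counts in all libraries. The chemokine Ccl2 had 0 counts in every Cx43FL library and 37, 22 and 55 counts in Cx43KO, at least 24.7-fold higher against a floor of 3 counts over the 3 Cx43FL libraries (edgeR adjusted p = 0.49), and Birc3, an inhibitor of apoptosis, was also higher in every library labelled Cx43KO. Relb, an NFκB subunit, had the lowest log2 fold change, -0.48 (edgeR adjusted p = 0.915), and the median of the 7 was 0.61, also with Ccl2 at its bound. Of 10 IRF3 target genes, 7 were tested, all with a log2 fold change above 0 (median 2.18), as had 7365 of the 13545 genes tested (median 0.071). At an unadjusted p below 0.05, edgeR gave 4 of the 7 higher, where 5.66% of all genes were. Ifnb1, the interferon itself, had 0 counts in all libraries. The chemokine Ccl5 had 0, 0 and 1 counts in the Cx43FL libraries and 151, 68 and 335 counts in those labelled Cx43KO (edgeR adjusted p = 0.49). DESeq2's adjusted p of Ccl5 was 0.000101 with its prior. The 6 other genes tested overlapped. The lowest log2 fold change was 0.29, for the antiviral gene Rsad2 (edgeR adjusted p = 0.962), with 5.66, 2.26 and 6.84 CPM in the Cx43FL libraries and 0.31, 16.6 and 1.11 CPM in those labelled Cx43KO. Rsad2 turned to -2.76 without Cx43KO replicate 2 and to -0.06 without Cx43FL replicate 2. Cx43KO replicate 1 lay below every Cx43FL library for Rsad2, for Ifit1 (0.248 CPM against 0.461 to 2.67) and for Isg15 (0.124 CPM against 0.782 to 2.45). Cx43KO replicates 2 and 3 had 27.9 and 46.7 CPM of Ifit1 and 11.9 and 11.6 CPM of Isg15, both antiviral genes induced by interferon. For Ifit2, Cx43KO replicate 1 was instead the highest of the 6 libraries, with 37.4 CPM against 9.77 to 28.1 CPM in Cx43FL. For Ifit3 (11.2 CPM) and Cxcl10 (7.82 CPM) it lay within the Cx43FL range. Ifit1, Isg15, Ifit2, Ifit3 and Cxcl10 were singled out after their values were seen. Ccl5 and Cxcl10 of this list are in the study's own list of higher genes from these libraries. Many genes of both lists are also made by microglia, and the part of those cells in these values was not tested.

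**Figure D5:**
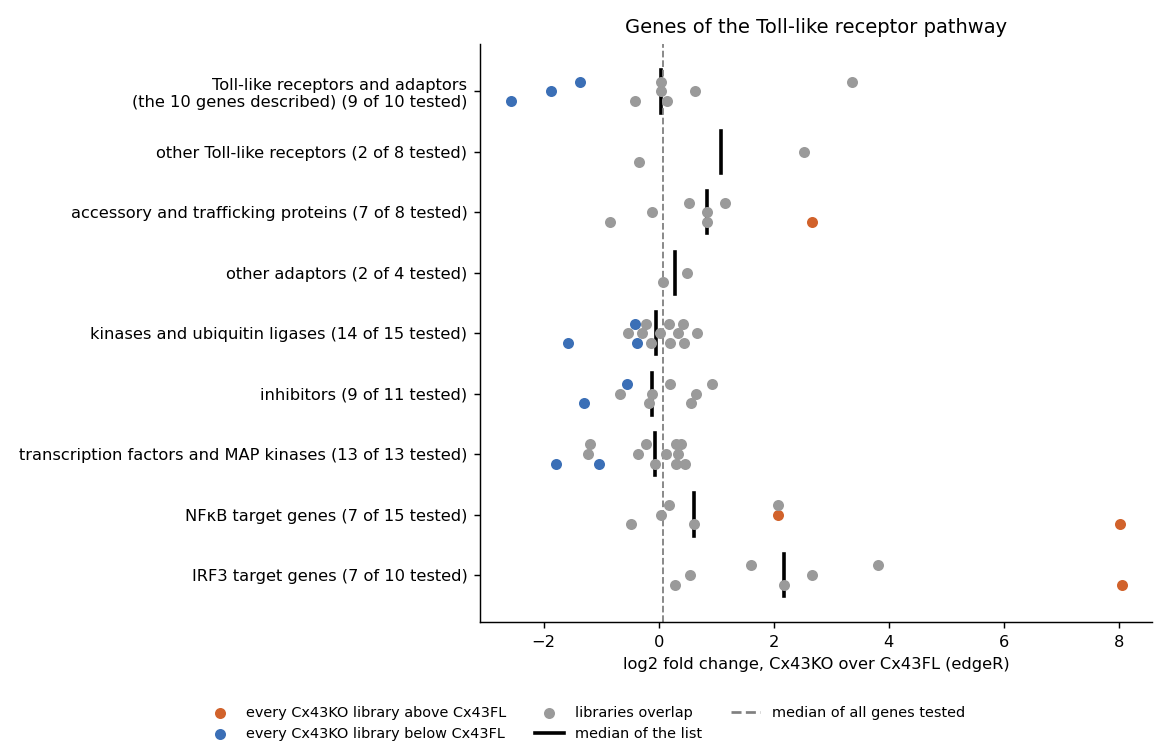
log2 fold change of Cx43KO over Cx43FL from edgeR (x axis) for the tested genes of the pathway, by list, with 1 point per gene, the median of each list as a black bar and that of all genes tested (0.071) as a dashed line. Blue points, genes whose Cx43KO libraries all lie below the Cx43FL libraries, lie in 4 lists, and orange points, the reverse, in 3 others. The points of Ccl2 and Ccl5 rest on 0 and 1 counts in Cx43FL.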

How the data were processed

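Polysomal mRNAs recovered by TRAP were sequenced in 3 Cx43FL and 3 Cx43KO libraries after amplification with the Ovation RNA-Seq kit. The authors filtered reads with the Eoulsan pipeline, aligned them with STAR on mm10, removed reads matching more than once and counted with HTSeq 0.5.3, and base calls were converted with bcl2fastq 1.8.4 per the labels. The deposited values are raw counts on 75466 Ensembl transcripts. The tests had been written for counts per gene, so each gene was represented by the transcript with the highest total. Of the transcripts 73157 were matched to GENCODE vM21 (GRCm38), and 2309 were not, with 1.605 to 1.778% of the counts.

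Genotypes were compared on all 13545 genes that passed filterByExpr, with edgeR 4.0.16 (R 4.3.3), TMM and the quasi-likelihood F test with genotype alone, and Benjamini-Hochberg adjustment. The F statistic gave standard errors, as log2 fold change over its square root. DESeq2 1.42.0, other scalings and filters, the replicate block, each library left out, and summed or single transcripts were alternatives. Beside it, log2(CPM + 0.5) of each gene was set between genotypes in an exact permutation test, 2-sided. The fit was tested on simulated data. Python 3.11.15 with pandas 2.3.3 and scipy 1.17.1 was used for the rest.

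The 10 genes and all lists were chosen with earlier results of these data known. Named are the 10 genes, Gja1, every other Toll-like receptor, the highest and lowest log2 fold change of each list, 3 genes closest to Tlr4, and markers at 0 or with the highest level. No 2 libraries agreed within sampling noise (chi-square per degree of freedom of 33.73 or more). Numbers in the names of the deposited files lie in separate ranges for each genotype, and a batch that they may mark cannot be told apart from the genotype.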

Additional observations from a re-analysis of the deposited data

How the results depend on the processing

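The number of the 10 genes called was 0 under every alternative run. Of 132 alternative log2 fold changes of the 9 tested genes, 120 kept the direction and 12 did not, and Cd14, Myd88, Ticam1, Tlr4, Tlr7 and Traf6 had no reversal. Tlr3 turned to -0.004 with upper-quartile factors and -0.001 with the replicate block, and ranged from -0.29 to 0.21 with each library left out (-0.069 without Cx43FL replicate 1, -0.009 without Cx43FL replicate 3). Ly96 turned to -0.58 with the replicate block and ranged from -0.28 to 0.71 (-0.032 without Cx43FL replicate 1, -0.19 without Cx43KO replicate 2). Irak1 turned to -0.027 with upper-quartile factors and ranged from -0.062 to 0.087 (-0.051 without Cx43FL replicate 2). The adjusted p of Tlr4 lay between 0.0569 and 0.934, that of Myd88 between 0.193 and 0.934 and that of Cd14 between 0.412 and 0.934. Of all genes, 1 was called higher and 0 lower by edgeR, and 113 and 17 by DESeq2 with its prior and 147 and 27 without it. Genes called higher were 0 with at least 10 counts in every library, 0 with summed transcripts, 2 with the replicate block, and 0 to 11 with each library left out, 11 without Cx43KO replicate 1. The genes lower in every library labelled Cx43KO were 3, and 2 (Cd14 and Myd88) with summed transcripts. They were 3 to 4 with a library left out, the same 3 plus Ticam1 without Cx43FL replicate 1 or Cx43KO replicate 3. Same-numbered libraries did not deviate together (correlations 0.01143, -0.004016 and -0.0547). A pairing by number was thus not seen, which does not show that the libraries were unpaired. Cd14, Ly96 and Tlr7 gave no value with at least 10 counts in every library. Some alternatives were chosen after seeing the data, namely testing every transcript, and all those for the count of genes lower in every library. The log2 fold change of Tlr2, 5.59 without a filter on low counts, was 1.14 with DESeq2's prior and 9.54 without Cx43FL replicate 3. Cd14, Tlr2 and Tlr7 had fewer than 50 counts in most libraries. The cause of these changes was not tested.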

Other observations

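Reads on Irak1 were spread unequally along the gene in a way that crossed the genotypes. Irak1 has 9 short transcripts in the counts that lie wholly in its 5′ end, and these had at most 4 counts in Cx43FL replicate 2 and at most 1 in Cx43KO replicate 3. The highest of them had 47 and 63 counts in Cx43FL replicates 1 and 3 and 59 and 68 counts in Cx43KO replicates 1 and 2. Relative to the counts on the representing transcript, the highest short transcript held 1.62, 0.168 and 2.33% in the Cx43FL libraries and 2.23, 1.59 and 0.0153% in those labelled Cx43KO. For Tlr4 the same libraries, Cx43FL replicate 2 and Cx43KO replicate 3, were those with the largest shares of counts on a short transcript of the first exons. These genes were singled out after their values were seen, and the cause was not tested.

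Kyat3, an aminotransferase of tryptophan metabolism, and Rad9a, a protein of the DNA damage checkpoint, were the other genes that followed Tlr4 closely over the libraries. Kyat3 had 34.1, 39.2 and 29.4 CPM in the Cx43FL libraries and 16.9, 17.6 and 22.6 CPM in those labelled Cx43KO. Rad9a had 118, 121 and 102 CPM in the Cx43FL libraries and 84.1, 79.4 and 88.9 CPM in those labelled Cx43KO.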
